A study of Bos taurus with 138 samples.

Results

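BTG4, the subunits of the CCR4-NOT complex and the PAN2-PAN3 complex were followed in bovine oocytes and preimplantation embryos. These genes were chosen by name, as 10 of the 16706 gene symbols in the count table: BTG4, CNOT1, CNOT2, CNOT3, CNOT6, CNOT6L, CNOT7, CNOT8, PAN2 and PAN3. Each symbol matched 1 bovine gene in RefSeq. The study sampled 6 stages, namely germinal vesicle (GV) oocytes, metaphase II (MII) oocytes, 2-cell and 8-cell embryos, morulae and blastocysts, all Bos taurus. At each stage, lysates of pooled oocytes or embryos were spun through sucrose gradients A and B, and each gradient was cut into 10 fractions, F1 to F10, which gave 120 fraction libraries. Transcriptomes of whole pooled oocytes or embryos were sequenced in 3 replicates per stage, 18 libraries in all. The oocytes came from slaughterhouse ovaries, MII oocytes were matured in vitro, and embryos were made with frozen semen of 1 Holstein bull and cultured in vitro. All stages received cycloheximide, which holds ribosomes on mRNA, and lost their zona pellucida to protease before freezing. Gradients were described as biological duplicates and transcriptomes as biological triplicates, and which animals entered each pool was not stated.

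Deadenylases shorten the poly(A) tail of mRNA, usually the step that starts decay and often one that ends translation. In vertebrate cells the PAN2-PAN3 complex is known to trim long tails, and CCR4-NOT to remove the rest. In oocytes, where transcription is silent, the maturing egg and early embryo clear stored maternal mRNA largely through tail shortening. BTG4 is an oocyte protein of the BTG/TOB family that binds the CCR4-NOT nuclease subunits and brings them to maternal mRNA.

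The total of expected counts per library lay between 1229382 and 17342859 in the fractions and between 3269386 and 11812567 in the transcriptomes. The shallowest transcriptome was blastocyst replicate A. The 8 oocyte markers summed to between 11781 and 25535 CPM, which are counts scaled to a fixed library total, in oocyte and 2-cell transcriptomes and to at most 858 CPM later. The 8 trophectoderm markers summed to between 4853 and 5653 CPM in blastocysts and to at most 331 CPM elsewhere. A list of 10 cumulus and granulosa cell markers summed to between 521 and 654 CPM in GV oocytes and between 470 and 581 CPM in MII oocytes. Its sums were 340 to 385 CPM in 2-cell and 174 to 419 CPM in 8-cell embryos, and at most 52.6 CPM in morulae and blastocysts. These markers did not move together. STAR alone averaged 543 CPM in GV and 179 CPM in MII oocytes, while TNFAIP6 went from 0.051 to 124 CPM and HAS2 from 33.1 to 180 CPM. Levels below are CPM scaled with TMM factors, so each is a share of its own library. A rise in such a share need not mean more mRNA molecules. Poly(A) tail length was not measured, and its part in these levels was not tested. The data are bulk, and fewer cells of a type cannot be told apart from less RNA per cell. CPM are not divided by transcript length, and levels are compared only within a gene. As described in the study, F1 and F2 held free RNA, F3 to F5 monosomes and F8 to F10 polysomes. F8, F9 and F10 of a gradient were summed into 1 polysome pool, so that each stage had 2 pools.

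BTG4 was abundant in oocytes and fell steeply between the 2-cell stage and the morula. In transcriptomes A, B and C it stood at 7515, 12113 and 9158 CPM in GV oocytes, at 23276, 19873 and 29895 CPM in MII oocytes, and at 11266, 11133 and 10855 CPM in 2-cell embryos. The 3 MII values lay above all GV and 2-cell values. In 8-cell embryos BTG4 stood at 1080, 1357 and 1878 CPM. The replicates then parted, with 441, 215 and 14.9 CPM in morulae and 667, 21.4 and 143 CPM in blastocysts. From the 2-cell to the 8-cell stage BTG4 fell, with a log2 fold change of -2.95 ± 0.86 (SE, n = 3 each; adjusted p = 0.0063, edgeR quasi-likelihood test), a 7.71-fold difference. From the 8-cell stage to the morula it fell again, with a log2 fold change of -2.68 ± 0.85 (adjusted p = 0.034). The latter call was lost without replicate C, where the change was -1.89 and adjusted p = 0.32.

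The differences of BTG4 from GV to MII oocytes (log2 fold change 1.34 ± 0.81, adjusted p = 0.29) and from MII oocytes to 2-cell embryos (-1.14 ± 0.81, adjusted p = 0.45) did not pass the test. In that fit the spread is shared by all 6 stages, and the spread of BTG4 between replicates was widest in morulae and blastocysts. When only libraries of the first 4 stages entered, an alternative added after seeing the data, the same changes were 1.23 ± 0.33 (adjusted p = 0.011) and -1.05 ± 0.33 (adjusted p = 0.033). The spread of late BTG4 values moved with the summed oocyte markers. The 8 oocyte markers summed to 221, 114 and 23.8 CPM in the 3 morula transcriptomes and to 755, 45.6 and 69.4 CPM in the 3 blastocyst transcriptomes. Much of the highest sums was 1 gene, as OOSP2 reached 131 CPM in morulae and 652 CPM in blastocysts. BMP15, the next highest, reached 70 and 32.6 CPM. Both BTG4 and the marker sum were highest in morula replicate A and lowest in replicate C, and both were highest in blastocyst replicate A and lowest in replicate B. The part of these oocyte transcripts in the late BTG4 values was not tested.

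By Pearson's r of log2(CPM + 1) over the 18 transcriptomes, the gene most like BTG4 among 14611 others was OOSP2, an oocyte-secreted protein gene that is also in the oocyte marker list, at r = 0.979. MOS, the kinase that holds the egg in metaphase, FBXO34, SMC1B, a meiotic cohesin subunit, and CD200 followed at r = 0.970. These libraries share stages, and the values are a description of likeness over 6 stages. Among the 10 genes themselves, CNOT2 and CNOT8 had the highest r with each other (0.926), and CNOT8 and PAN3 the lowest (-0.792).

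**Figure D1:**
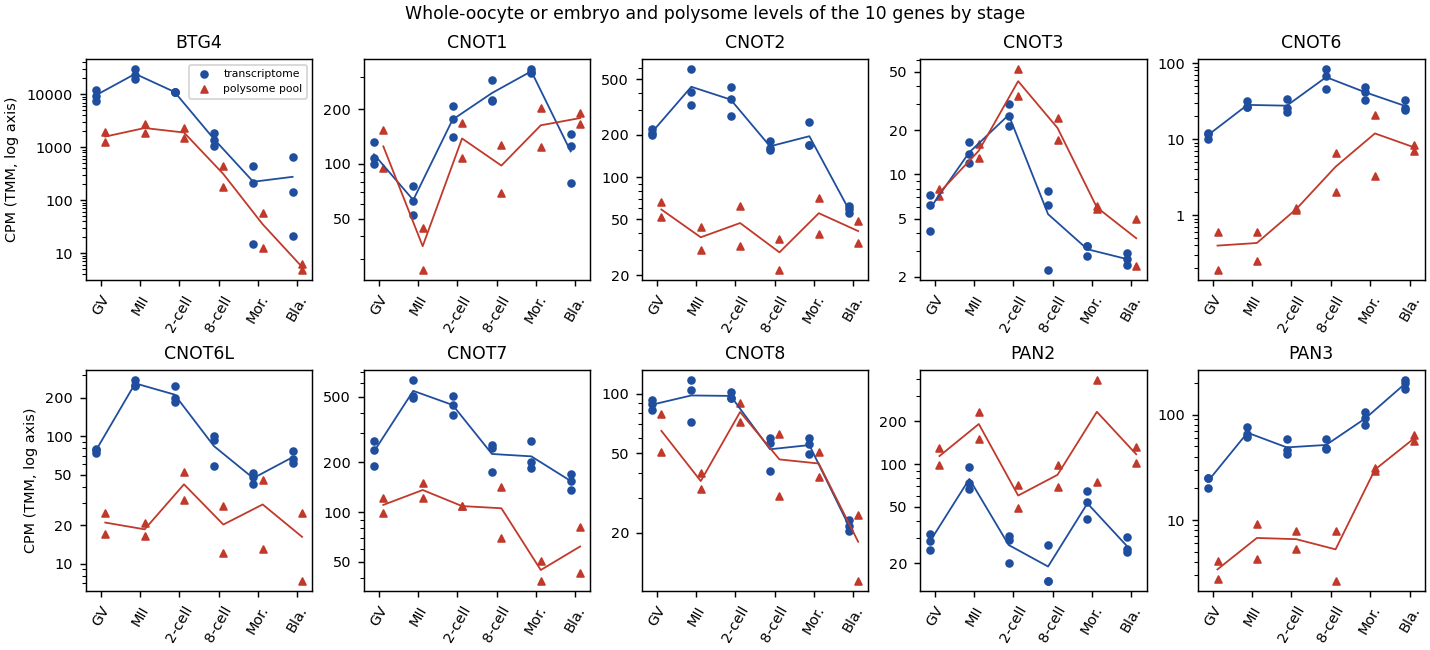
Levels of the 10 genes at 6 stages (x axis) in CPM with TMM factors (y axis, log scale). Blue points are the 3 transcriptomes and red triangles the 2 polysome pools of a stage, and lines join the means. BTG4 transcriptomes lie between 7515 and 29895 CPM up to the 2-cell stage and spread from 14.9 to 667 CPM in morulae and blastocysts.

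The scaffold and regulatory subunits of CCR4-NOT did not share 1 pattern in the transcriptomes. CNOT1, the scaffold on which the complex is built, stood at 132, 107 and 100 CPM in GV oocytes, 62.5, 75.2 and 52.3 CPM in MII oocytes, 208, 177 and 140 CPM in 2-cell embryos and 220, 290 and 226 CPM in 8-cell embryos. Its morula values, 320, 332 and 317 CPM, were above those of every other stage, and its blastocyst values were 78.8, 147 and 126 CPM. CNOT1 rose from MII oocytes to 2-cell embryos (log2 fold change 1.47 ± 0.30, adjusted p = 0.0017) and fell from morula to blastocyst (-1.46 ± 0.30, adjusted p = 0.001). Its difference from GV to MII oocytes was -0.83 ± 0.30 (adjusted p = 0.055).

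CNOT2, which with CNOT3 forms the module that docks on CNOT1, followed BTG4 more closely than CNOT1 did, with r = 0.698 against -0.560. Higher r with BTG4 was found for CNOT7 (0.711), CNOT3 (0.739), CNOT6L (0.759) and CNOT8 (0.789). CNOT2 stood at 206, 221 and 201 CPM in GV oocytes and at 327, 408 and 590 CPM in MII oocytes, with no overlap. It was at 438, 362 and 274 CPM in 2-cell embryos, 180, 162 and 156 CPM in 8-cell embryos, 171, 170 and 247 CPM in morulae and 59.1, 55.6 and 62.4 CPM in blastocysts. CNOT2 rose from GV to MII (log2 fold change 1.08 ± 0.30, adjusted p = 0.013). It fell from the 2-cell to the 8-cell stage (-1.11 ± 0.30, adjusted p = 0.0039) and from morula to blastocyst (-1.73 ± 0.31, adjusted p = 0.00022).

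CNOT3 was highest in 2-cell embryos, at 24.9, 21.3 and 30 CPM, against 2.23, 6.18 and 7.65 CPM in 8-cell embryos and between 2.4 and 3.27 CPM in morulae and blastocysts. It fell from the 2-cell to the 8-cell stage, with a log2 fold change of -2.24 ± 0.46 (adjusted p = 0.0003).

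The 4 nuclease subunits also moved apart. CNOT7 and CNOT8 are close paralogs of the DEDD class and are alternatives to each other in the complex, as are CNOT6 and CNOT6L of the EEP class. CNOT6L stood at 73.8, 79.5 and 77.7 CPM in GV oocytes and at 277, 247 and 254 CPM in MII oocytes. Its later values were 200, 249 and 187 CPM at the 2-cell stage, 58.1, 93 and 99.5 CPM at the 8-cell stage, and between 41.9 and 77 CPM in morulae and blastocysts. CNOT6L rose from GV to MII (log2 fold change 1.75 ± 0.42, adjusted p = 0.0037) and fell from the 2-cell to the 8-cell stage (-1.34 ± 0.41, adjusted p = 0.0089). CNOT6 did the opposite at the latter step. It stood at 25.6, 34.1 and 22.8 CPM in 2-cell embryos and at 45.8, 83.2 and 66.8 CPM in 8-cell embryos, and rose by 1.25 ± 0.52 on the log2 scale (adjusted p = 0.049). That call lay at the threshold and was lost with RLE factors, the replicate block, without the filter, without blastocyst replicate A and without replicate C.

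CNOT7 stood at 238, 190 and 269 CPM in GV oocytes, 501, 491 and 632 CPM in MII oocytes, 387, 503 and 445 CPM in 2-cell embryos and 174, 245 and 255 CPM in 8-cell embryos. CNOT7 thus rose in maturation (log2 fold change 1.22 ± 0.27, adjusted p = 0.0022) and fell between the 2-cell and 8-cell stages (-0.98 ± 0.27, adjusted p = 0.0043). CNOT8 held between 72.1 and 117 CPM from GV to the 2-cell stage. It fell at the 8-cell stage to 60.1, 40.7 and 56.7 CPM (-0.89 ± 0.31, adjusted p = 0.02) and in blastocysts to 23.2, 21.6 and 20.4 CPM (-1.34 ± 0.32, adjusted p = 0.0031).

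The 2 subunits of the PAN complex ended in different places. PAN2, the nuclease, stood at 32.2, 24.7 and 29 CPM in GV oocytes, 74, 67.2 and 94.8 CPM in MII oocytes, 31.3, 29.3 and 20.2 CPM in 2-cell embryos, 26.8, 15.1 and 15.1 CPM in 8-cell embryos, 64.2, 53.7 and 40.9 CPM in morulae and 24.1, 30.5 and 25.2 CPM in blastocysts. The MII and morula values lay above those of their neighbouring stages. PAN2 rose from GV to MII (log2 fold change 1.46 ± 0.40, adjusted p = 0.012), fell from MII to 2-cell (-1.54 ± 0.41, adjusted p = 0.011) and rose from 8-cell to morula (1.48 ± 0.41, adjusted p = 0.015).

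PAN3, the partner that binds poly(A)-binding protein and brings PAN2 to the tail, went from 20.3, 25.1 and 24.8 CPM in GV oocytes to 75.7, 65.1 and 61.1 CPM in MII oocytes. It was highest in blastocysts, at 173, 199 and 214 CPM, against 80, 91.8 and 105 CPM in morulae. PAN3 rose in maturation (log2 fold change 1.52 ± 0.34, adjusted p = 0.0022) and from morula to blastocyst (1.08 ± 0.34, adjusted p = 0.021). It was the 1 gene of the 10 called higher in the last transition.

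Counted over the 10 genes, 5 rose and 0 fell from GV to MII, with a median log2 fold change of 1.29. Over all 14612 genes tested, 7.72% rose, 10.9% fell and the median was 0. At an unadjusted p under 0.05 the counts were 7 and 1, as they were for calls by DESeq2. The same step had 5 genes not called, with values between -0.83 for CNOT1 and 1.34 for BTG4. From the 2-cell to the 8-cell stage 6 of the 10 fell and 1 rose, with a median of -0.94, where 24.6% of all genes fell, 27.7% rose and the median was 0.03. The other transitions had few calls. CNOT1 rose and PAN2 fell from MII to 2-cell (13.1% of all genes called), PAN2 rose and BTG4 fell from 8-cell to morula (15.4% called), and PAN3 rose and CNOT1, CNOT2 and CNOT8 fell from morula to blastocyst (23.2% called). These 20 calls of 50 tests became 6 without replicate C. That fit also called fewer of all genes, 900 against 2724 from GV to MII and 4684 against 7647 from 2-cell to 8-cell. Leaving out replicate A or B left 1 pool per stage, so calls kept there are weak support.

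**Figure D2:**
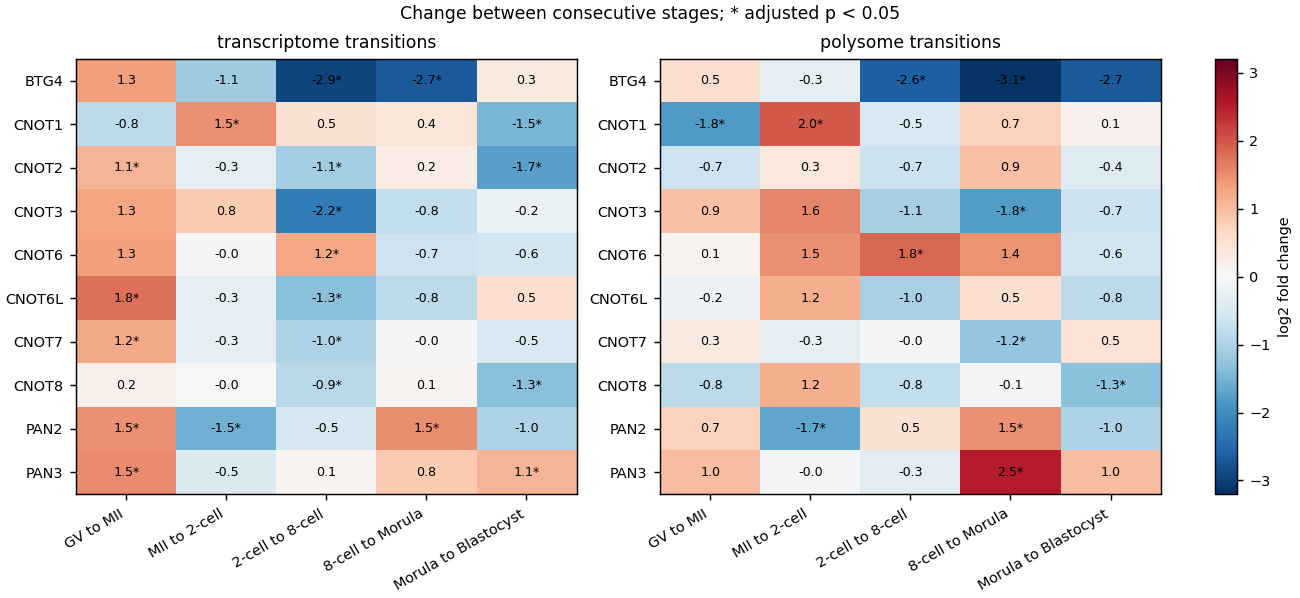
Log2 fold changes of the 10 genes (rows) between consecutive stages (columns) in transcriptomes, left, and polysome pools, right. Red is higher and blue lower at the later stage, and an asterisk marks an adjusted p below 0.05, with 20 calls in transcriptomes and 11 in polysome pools.

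In polysomes the step from the 2-cell to the 8-cell stage was again steep for BTG4. Its polysome pools A and B held 1908 and 1282 CPM in GV oocytes, 1826 and 2798 CPM in MII oocytes, 1529 and 2275 CPM in 2-cell embryos, 444 and 182 CPM in 8-cell embryos, 12.5 and 57.9 CPM in morulae and 6.22 and 4.81 CPM in blastocysts. BTG4 fell in polysomes from 2-cell to 8-cell (log2 fold change -2.60 ± 1.04, n = 2 pools each, adjusted p = 0.043) and from 8-cell to morula (-3.15 ± 1.07, adjusted p = 0.023). Without replicate B the former was -1.78, with adjusted p = 0.19, with F9 and F10 alone it was -2.55, with adjusted p = 0.074, and without replicate A the latter was -1.65, with adjusted p = 0.15. From GV to MII the difference in polysomes was 0.54 ± 0.98 (adjusted p = 0.89). With libraries of the first 4 stages alone it was 0.49 ± 0.40 (adjusted p = 0.54).

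CNOT1 fell in polysomes on maturation, from 95.5 and 154 CPM to 26.1 and 44.6 CPM (log2 fold change -1.82 ± 0.38, adjusted p = 0.005), and rose to 169 and 107 CPM in 2-cell embryos (1.97 ± 0.38, adjusted p = 0.0021). From GV to MII it was the 1 gene of the 10 called, where 5.43% of all genes were, and from MII to 2-cell it was called with PAN2 (-1.67 ± 0.50, adjusted p = 0.036), where 8.65% of all genes were. From 2-cell to 8-cell, BTG4 and CNOT6 (1.85 ± 0.66, adjusted p = 0.026) were called, 2 of 10 genes against 47.3% of all genes. DESeq2 called 6 of the 10 in this step, 1 higher and 5 lower, where it called 7651 of 14846 genes.

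From the 8-cell stage to the morula 5 of the 10 genes were called in polysomes, where 37% of all genes were. PAN3 rose from 7.87 and 2.66 CPM to 30.9 and 29.2 CPM (log2 fold change 2.52 ± 0.43, adjusted p = 0.00012), and BTG4, CNOT3 (-1.80 ± 0.55, adjusted p = 0.014) and CNOT7 (-1.24 ± 0.34, adjusted p = 0.0061) fell. PAN2 was called higher as well (1.47 ± 0.49, adjusted p = 0.022), on values of 69.6 and 98.6 CPM in 8-cell pools and 74.3 and 393 CPM in morula pools. The PAN2 call rested on morula gradient B, and without replicate B the change was 0.09. From morula to blastocyst CNOT8 fell, from 38.3 and 50.8 CPM to 11.5 and 24.6 CPM (-1.30 ± 0.38, adjusted p = 0.026), with 14.2% of all genes called. Of these 11 polysome calls of 50 tests, 6 were kept without replicate C, and 2 were kept when the pools were fitted without the transcriptomes. That pools-only fit called far fewer of all genes. Of 14339 genes it called 4 during maturation, 26 up to the 2-cell stage and 29 at the last step. The main fit called 794, 1264 and 2080 at those steps. Into and out of the 8-cell stage the pools-only fit called 2354 and 1073 genes, against 6908 and 5410. A fit of the transcriptomes alone called more, 6293 of 13264 genes from GV to MII against 2724 of 14612 in the main fit. The spread shared with the transcriptomes may thus be too small for the pools, and polysome p-values too small with it. A call lost in the pools-only fit therefore does not single out a gene.

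The change between stages differed between polysomes and transcriptome for 3 genes. For CNOT2 from GV to MII the polysome change minus the transcriptome change was -1.74 ± 0.48 on the log2 scale (adjusted p = 0.019), as CNOT2 rose 2.11-fold in transcriptomes while its pools held 51.6 and 66 CPM before and 44.3 and 30.1 CPM after. For PAN3 from 8-cell to morula it was 1.68 ± 0.53 (adjusted p = 0.039), and for CNOT1 from morula to blastocyst 1.59 ± 0.47 (adjusted p = 0.03). Over all genes 10.6%, 12.5% and 12.3% were called in these transitions. No gene of the 10 was called from MII to 2-cell or from 2-cell to 8-cell by edgeR (1.81% and 12.2% of all genes) or by DESeq2, with 2 genes at an unadjusted p under 0.05 in each. BTG4 was not called in any transition. Of the 3 calls, 2 were kept without replicate A, 1 without replicate B, 0 without replicate C and 1 with F9 and F10 alone as polysomes.

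Set against the transcriptome of the same stage, most of the 10 genes were lower in polysomes and PAN2 was higher. PAN2 pools held 98.9 and 129 CPM in GV oocytes, 232 and 151 CPM in MII oocytes, 71 and 49.3 CPM in 2-cell embryos, 69.6 and 98.6 CPM in 8-cell embryos, 74.3 and 393 CPM in morulae and 133 and 102 CPM in blastocysts. At every stage both pools lay above all 3 transcriptomes. The log2 ratio of polysome to transcriptome was 1.99 ± 0.44 in GV oocytes (adjusted p = 0.0008), 1.28 in MII oocytes, 1.16 in 2-cell embryos and 2.14 at each of the 3 later stages, and passed the test at all 6 stages. Without replicate B the morula value was 0.49 and was no longer called, and without replicate C the 2-cell value was 0.97 and was no longer called. The 2-cell call was also lost with DESeq2, RLE factors and the replicate block, and with F9 and F10 alone as polysomes the 2-cell value was 1.03 (adjusted p = 0.10) and the MII value 1.06 (adjusted p = 0.080).

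PAN3 was the reverse. Its pools held 2.75 and 4.05 CPM in GV oocytes, 4.25 and 9.26 CPM in MII oocytes, 5.28 and 7.88 CPM in 2-cell embryos and 55.6 and 63.7 CPM in blastocysts, below all transcriptomes of those stages. The log2 ratio lay between -3.31 ± 0.43 in MII oocytes (adjusted p = 5.8e-07) and -1.62 ± 0.39 in morulae (adjusted p = 0.0016). PAN3 was called lower at all 6 stages under every alternative run.

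The nucleases CNOT6 and CNOT7 were lower in polysomes at all 6 stages as well. CNOT6 was barely seen there in oocytes, with 24 and 7 counts in the GV pools and 7 and 17 counts in the MII pools, or at most 0.608 CPM, against 10 to 31.8 CPM in the transcriptomes. Its log2 ratio went from -6.01 ± 0.79 in MII oocytes (adjusted p = 6.1e-07) to -1.80 ± 0.62 in morulae (adjusted p = 0.018), and the morula and blastocyst calls were lost without replicate C and with F9 and F10 alone as polysomes, the morula call also without replicate B. CNOT7 pools held between 38.5 and 150 CPM, against 137 to 632 CPM in transcriptomes, with log2 ratios between -2.28 ± 0.33 in morulae and -1.07 ± 0.31 in GV oocytes. CNOT7 was no longer called in 8-cell embryos without replicate B (-0.61) or with F9 and F10 alone (-0.68), or in GV oocytes without replicate C (-0.98). CNOT6L was lower at 5 stages, most in MII oocytes, at -3.80 ± 0.54 (adjusted p = 2e-06), and its morula difference of -0.69 ± 0.46 was not called. CNOT8 was lower in MII oocytes (-1.43 ± 0.36, adjusted p = 0.0018) and was not called at the other stages, where its ratio lay between -0.44 and -0.17.

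BTG4 was lower in polysomes at 5 stages. The log2 ratio was -2.59 ± 1.0 in GV oocytes (adjusted p = 0.041), -3.40 ± 1.04 in MII oocytes (adjusted p = 0.0076), -2.54 ± 0.99 in 2-cell embryos (adjusted p = 0.036), -2.67 ± 1.0 in morulae (adjusted p = 0.029) and -5.65 ± 1.18 in blastocysts (adjusted p = 0.00053). In 8-cell embryos it was -2.20 ± 0.98 (adjusted p = 0.056). The BTG4 call in GV oocytes was lost without replicate B (-2.13) and that in morulae without replicate A (-0.99). With F9 and F10 alone as polysomes the calls in GV oocytes (-2.68, adjusted p = 0.067), 2-cell embryos (-2.44, adjusted p = 0.072) and morulae (-2.50, adjusted p = 0.064) were lost.

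CNOT2 was lower at 5 stages, from -3.57 ± 0.39 in MII oocytes (adjusted p = 4.1e-08) to -1.82 ± 0.36 in morulae, and its blastocyst ratio of -0.52 ± 0.34 was not called. With F9 and F10 alone as polysomes the CNOT2 calls in GV oocytes (-1.79, adjusted p = 0.20) and morulae (-2.30, adjusted p = 0.081) were lost. CNOT1 was lower in MII oocytes (-0.84 ± 0.34, adjusted p = 0.039), 8-cell embryos (-1.32 ± 0.35, adjusted p = 0.0025) and morulae (-0.99 ± 0.34, adjusted p = 0.02). The CNOT1 call in MII oocytes was lost without replicate A (-0.52), without the filter and without replicate C, as was that in morulae without replicate C. CNOT3 was higher in 8-cell polysomes, at 17.2 and 24.2 CPM against at most 7.65 CPM in transcriptomes (1.95 ± 0.49, adjusted p = 0.0016), and was not called at the other stages.

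By stage, the number of the 10 genes that were lower in polysomes was 6 for GV, 8 for MII, 6 for 2-cell, 6 for 8-cell, 6 for morula and 5 for blastocyst samples. The share of all genes that was lower was 17.7%, 26.7%, 21.9%, 31%, 25.2% and 20.1% in that order. The share of all genes that was higher was 22.2%, 30.8%, 29.1%, 28%, 26.5% and 20%, against 1 of the 10 at each stage and 2 in 8-cell embryos. With F9 and F10 alone as polysomes, 34 of the 44 calls were kept. The median log2 ratio of the 10 genes lay between -2.65 in MII oocytes and -0.92 in blastocysts. The median over all genes was 0.18 for 2-cell and -0.26 for 8-cell samples and within 0.08 of 0 at the other stages. It was also -0.26 for the polysome change from 2-cell to 8-cell, and -0.23 and -0.12 for the difference of the changes from 2-cell to 8-cell and from morula to blastocyst.

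**Figure D3:**
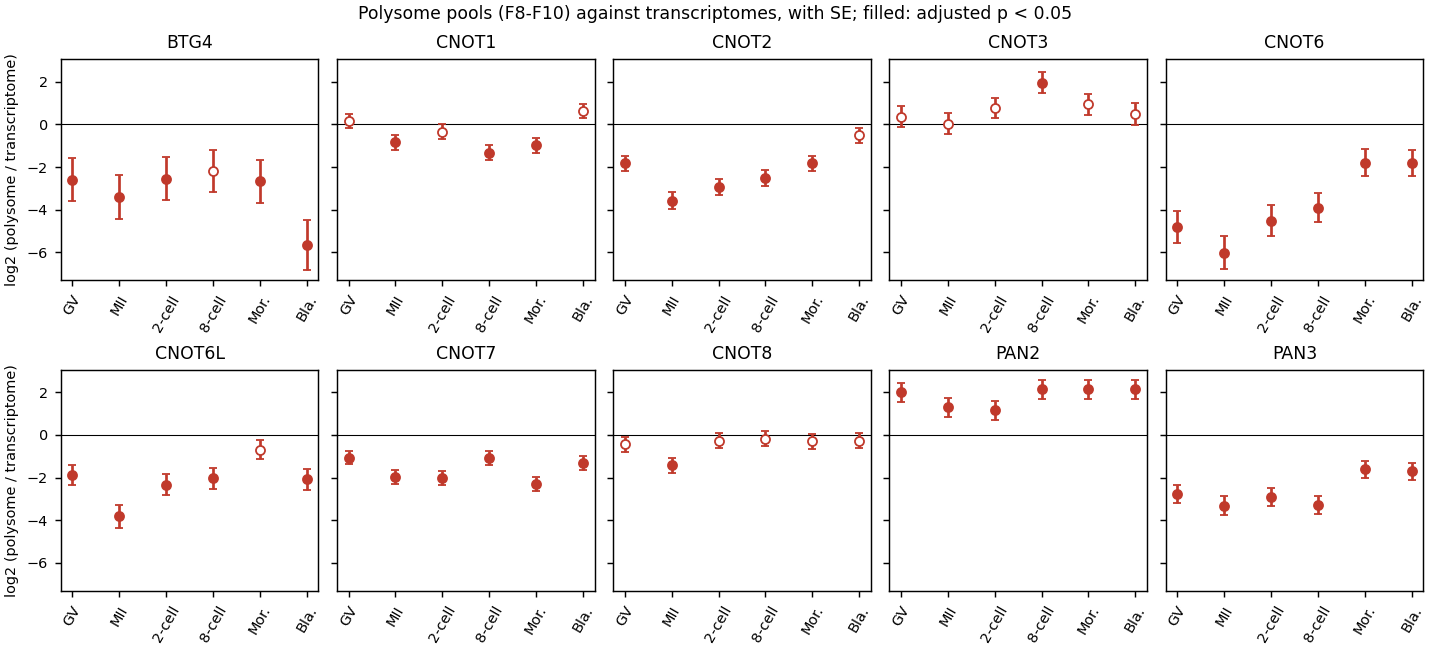
Log2 ratio of polysome pools to transcriptomes (y axis) at each stage (x axis) for the 10 genes, with bars of 1 SE. Filled points have an adjusted p below 0.05. PAN2 lies above 0 and PAN3, CNOT6 and CNOT7 lie below 0 at all 6 stages.

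The low polysome levels were not confined to polysomes, because the same genes were low across the gradient. In CPM without TMM factors, PAN3 was below all 3 transcriptomes of its stage in 119 of the 120 fraction libraries, CNOT6 in 117, CNOT2 in 115, CNOT7 in 114, CNOT6L in 111 and BTG4 in 99. BTG4 averaged 10277 CPM in GV transcriptomes and 1851 CPM over the 20 GV fractions, and 19613 CPM in MII transcriptomes and 1359 CPM over the 20 MII fractions. PAN2 was above all 3 transcriptomes in 83 of 120 fractions and CNOT3 in 93. The excess of PAN2 did not extend to the free RNA fractions. Over F1 and F2 PAN2 averaged less than its transcriptomes at all 6 stages, from 30.2 against 31.2 CPM in GV oocytes to 6.91 against 26.2 CPM in blastocysts. CNOT3 averaged more in F1 and F2 than in its transcriptomes at every stage but the blastocyst, where it was at 1.90 against 2.62 CPM. The median over the 10 genes was 105 fractions below, and over all 14612 genes it was 50. Among all genes 16.2% had 110 or more fractions below, as 5 of the 10 did, and 21.7% had 80 or more above, as 2 of the 10 did. Whole oocytes and single fractions were separate preparations, and their part in these ratios was not tested.

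**Figure D4:**
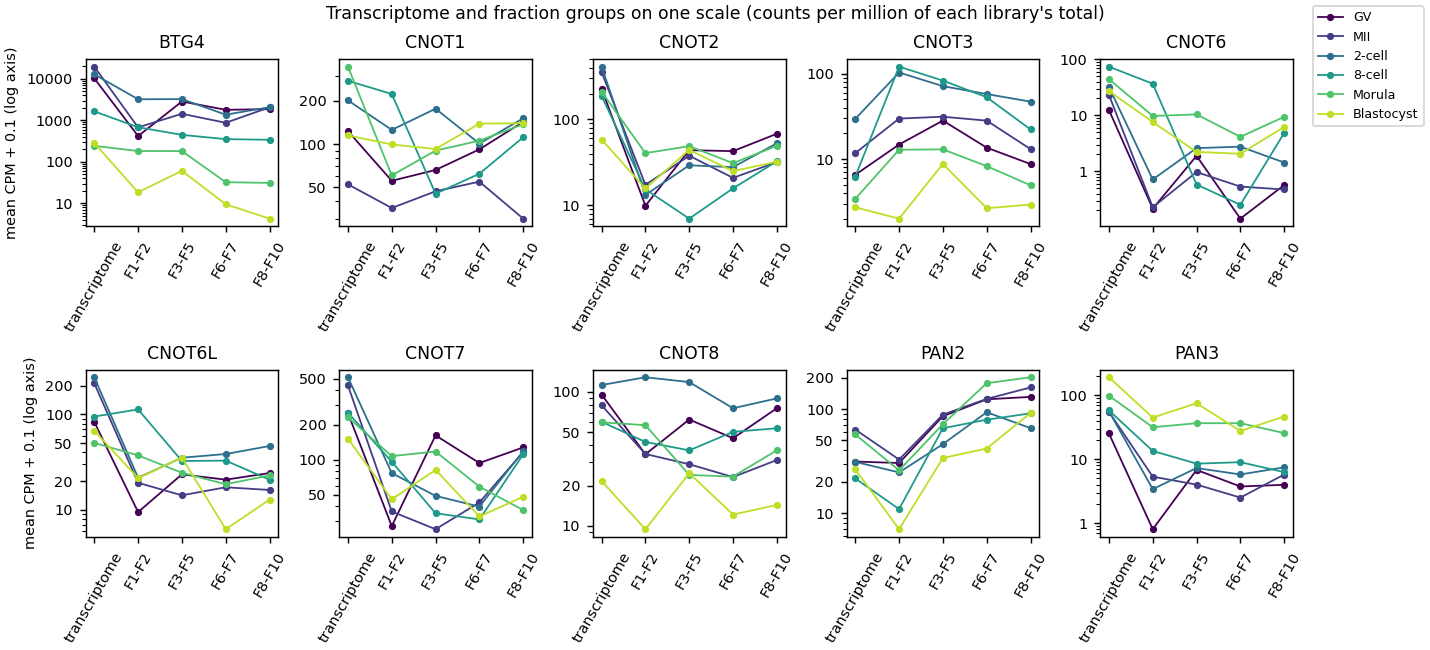
Mean CPM plus 0.1 (y axis, log scale, no TMM factors) of the transcriptomes and of 4 groups of fractions (x axis), 1 line per stage. In the BTG4, CNOT2, CNOT6, CNOT7 and PAN3 panels most lines drop from the transcriptome to every group of fractions, and in the CNOT3 panel most lines go up from the transcriptome to the free RNA and monosome fractions.

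The trend of mRNA level along a gradient was tested apart from the transcriptome. It was Spearman's rho of the level with fraction number over F3 to F10 of both gradients. Each level is a share of its own fraction library, so peaks and trends do not give the portion of molecules in a fraction. Libraries of 1 gradient are not independent, and these p-values may be too small. Of 58 tests, 6 passed, and CNOT6 was left out in GV and MII oocytes, where it averaged under 1 CPM. CNOT3 leaned to the light fractions, with rho = -0.86 in GV oocytes (adjusted p = 0.00085 by permutation), -0.69 in MII oocytes (adjusted p = 0.029) and -0.86 in 8-cell embryos (adjusted p = 0.0022). In GV gradient A, CNOT3 stood at 40.7, 32.3 and 36.5 CPM in F3, F4 and F5 and at 6.74, 8.24 and 6.04 CPM in F8, F9 and F10. In 8-cell gradient B it stood at 116, 93.6 and 90 CPM in F3 to F5 and at 12, 32.4 and 19.5 CPM in F8 to F10. Among all genes tested, the share that fell with fraction number was 20.2% for GV, 11.8% for MII and 10.8% for 8-cell gradients.

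CNOT7 leaned to the heavy fractions in MII oocytes, with rho = 0.72 (adjusted p = 0.02), where 7.39% of all genes rose. CNOT7 climbed in MII gradient A from 15.5 CPM in F3 to 95, 129 and 187 CPM in F8, F9 and F10, and in gradient B from 22.8 CPM in F3 to 109 and 173 CPM in F8 and F9, with 26.8 CPM in F10. In morulae rho of CNOT7 was -0.53 and in blastocysts -0.47, neither called. CNOT1 rose across the GV gradient, with rho = 0.69 (adjusted p = 0.017), where 16.6% of all genes rose.

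BTG4 leaned to the light fractions in blastocysts, with rho = -0.79 (adjusted p = 0.015), where 1.92% of all genes fell. Its peak was F3 in both blastocyst gradients, at 106 and 137 CPM, against at most 10.4 CPM in F8 to F10. In GV oocytes BTG4 peaked in F4 of gradient A at 2463 CPM and in F5 of gradient B at 4369 CPM. In MII oocytes it stood at 1998 and 1900 CPM in F9 and F10 of gradient A, where the peak was monosome fraction F5 at 2126 CPM. In gradient B it stood at 2773 and 4637 CPM in F9 and F10, and the highest level was in F10. The rho of BTG4 was -0.45 in GV oocytes (adjusted p = 0.16), 0.42 in MII oocytes (adjusted p = 0.26), -0.30 in 2-cell embryos, -0.53 in 8-cell embryos and -0.51 in morulae, and none of these was called. In 8-cell embryos the gradients parted, as BTG4 peaked in F10 of gradient A at 629 CPM and in F2 of gradient B at 1117 CPM.

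PAN2 was higher in F8 to F10 than in F1 and F2 of both gradients at all 6 stages in block means, but its rho over F3 to F10 lay between 0.02 and 0.59 and was not called. CNOT2, CNOT6L, CNOT8 and PAN3 had no called trend at any stage, and none of the 10 genes had one in 2-cell embryos (19.9% of all genes called) or morulae (1.39%). At an unadjusted p under 0.05 there were 1 in 2-cell embryos and 3 in morulae, and edgeR called 0 at both stages when it compared F8 to F10 with F3 to F5. That comparison called 0 of all 14873 genes in 2-cell embryos and 236 in morulae. With each gradient as a replicate block that comparison called BTG4 lower in F8 to F10 of morulae, at -2.61 ± 0.47 (adjusted p = 0.034), where it was -2.49 ± 0.63 (adjusted p = 0.053) without the block. With only 1 gradient, none of the 6 trend calls was kept without replicate A. Without replicate B 2 were kept, those of CNOT3 in GV oocytes and of CNOT7 in MII oocytes. In blastocysts 1 gradient gave 0 calls over all genes, as did gradient A alone in 8-cell embryos, so losses there do not single out a gene. In that edgeR comparison, 2 of the 6 were called. The log2 ratios were -4.04 ± 0.68 for BTG4 in blastocysts (adjusted p = 0.0067) and -2.29 ± 0.69 for CNOT3 in 8-cell embryos (adjusted p = 0.045). Over all 14873 genes that comparison called 74 in GV, 65 in MII, 1392 in 8-cell and 213 in blastocyst samples. With that block BTG4 in blastocysts was called and CNOT3 in 8-cell embryos was not (-2.31 ± 0.72, adjusted p = 0.072). The light lean of CNOT3 and the 8-cell polysome excess over the transcriptome stand side by side, since CNOT3 was above its transcriptomes in 19 of the 20 8-cell fractions.

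**Figure D5:**
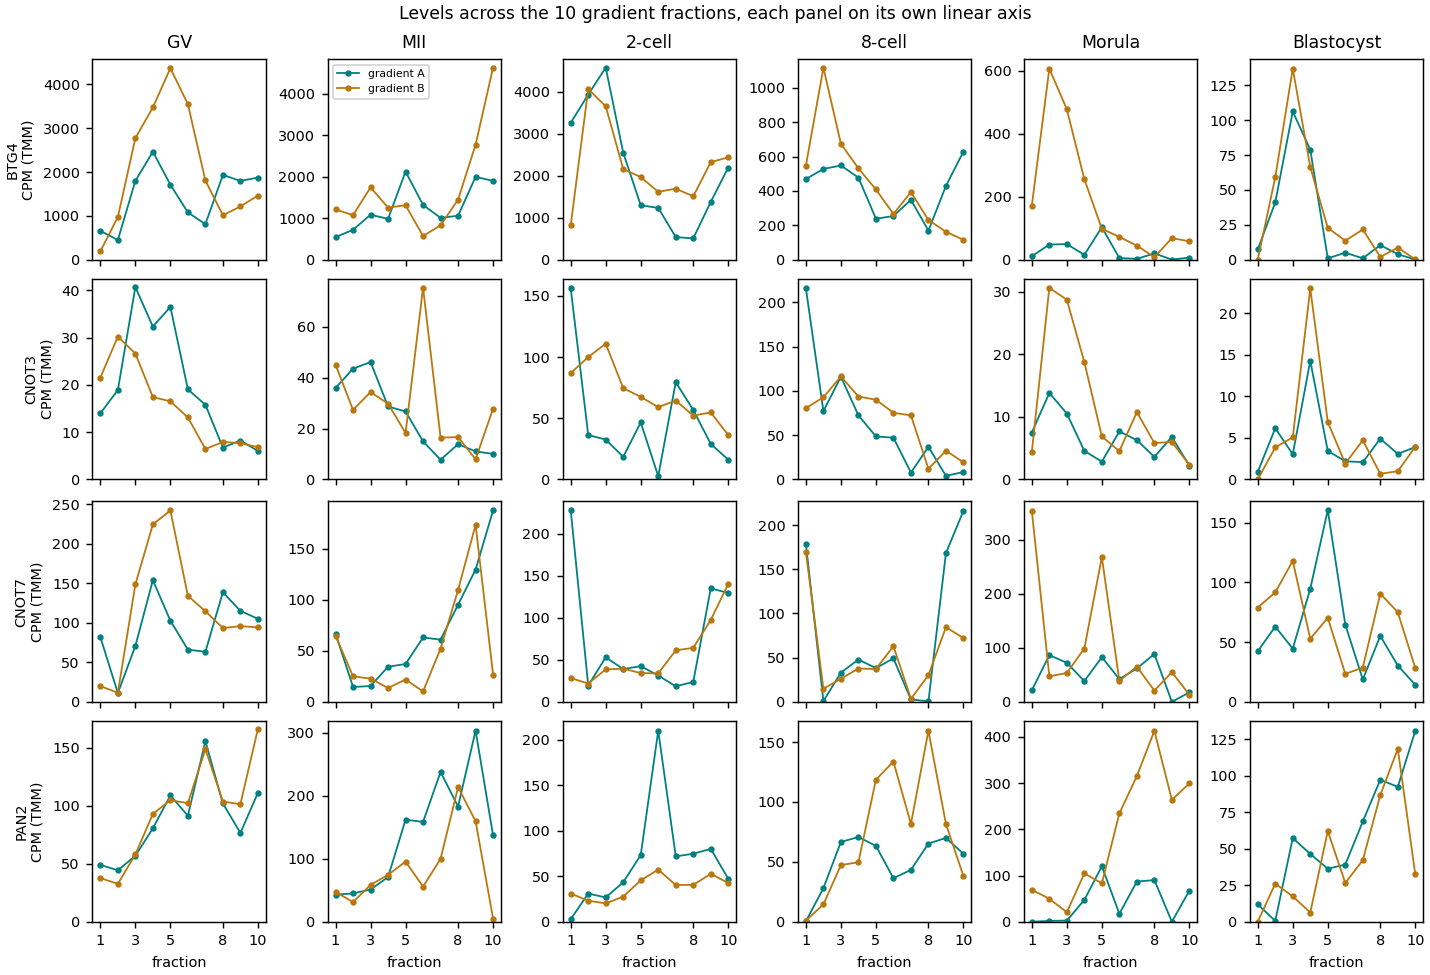
Levels of BTG4, CNOT3, CNOT7 and PAN2 (rows) in CPM with TMM factors across fractions 1 to 10 (x axis) at 6 stages (columns), each panel on its own linear scale, with gradient A in green and gradient B in ochre. CNOT3 in GV oocytes and 8-cell embryos is higher in F3 to F5 than in F8 to F10, and BTG4 in blastocysts peaks in F3 of both gradients.

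Among 8-cell fractions CNOT6 had its highest share in free RNA fraction F1. It stood at 32.2 and 106 CPM in F1 of gradients A and B and at no more than 15.5 CPM in any other 8-cell fraction. CNOT6 had 0 counts in 32 of the 120 fraction libraries, where 3 counts would be between 0.218 and 1.87 CPM. CNOT6L was highest in 8-cell F1 of gradient A, at 206 CPM, and in F2 of gradient B, at 131 CPM. High 8-cell F1 levels were not particular to these 2 genes. F1 also had the highest mean for CNOT1 (325 CPM), CNOT7 (174 CPM) and CNOT3 (148 CPM). The peak lay in F1 of gradient A for CNOT1 and CNOT3 and of gradient B for CNOT7, and elsewhere in the other gradient.

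The rest of the pathway was read from 26 other genes, among them CCR4-NOT subunits, BTG/TOB proteins, other deadenylases and RNA-binding adaptors. From GV to MII 8 of the 26 rose in transcriptomes and the other 18 were not called, with a median log2 fold change of 0.66, where 7.72% of all genes rose. From 2-cell to 8-cell 8 rose and 10 fell, with a median of 0.07, where 27.7% of all genes rose and 24.6% fell. In polysomes against transcriptome 12 were higher and 2 lower in GV oocytes, where the median was 1.03 and 22.2% of all genes were higher and 17.7% lower. In blastocysts 6 were higher and 9 lower, with a median of -0.84, where 20% of all genes were higher and 20.1% lower.

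Within the family of BTG4, BTG3 and BTG1, antiproliferative proteins, rose when BTG4 fell. BTG3 stood at 0.456, 0.16 and 0.15 CPM in 2-cell and at 137, 113 and 74.6 CPM in 8-cell transcriptomes (log2 fold change 8.69 ± 1.05, adjusted p = 4.3e-07), and BTG1 went from 6.39, 7.99 and 10.7 CPM to 262, 407 and 251 CPM (5.20 ± 0.49, adjusted p = 6.7e-09). BTG3 had 0 counts in both 2-cell polysome pools, which allows up to 0.0923 CPM at 3 counts, and 40.8 and 29.6 CPM in the 8-cell pools.

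ANGEL1, a relative of the CCR4 nucleases, was called higher in polysome pools than in transcriptomes at every stage but the 8-cell stage, where it was called lower. It stood at 18.2 and 32.9 CPM in GV pools and at 51.4 and 28.4 CPM in MII pools, against at most 0.41 CPM in the transcriptomes of these stages. The blastocyst call lay near the floor. All 3 blastocyst transcriptomes had 0 counts, which allows up to 0.882 CPM at 3 counts, and the mean over blastocyst F3 to F10 was 1.10 CPM. Morula transcriptome C had 0 counts as well. ANGEL1 had 0 counts in both 8-cell pools, which allows up to 0.123 CPM, after 23.5 and 15.8 CPM in 2-cell pools. The level was not particular to polysomes, since ANGEL1 averaged 30.6 CPM over F3 to F10 of GV gradients, with no called trend (rho = -0.29), and 4.70 CPM over the same fractions of 8-cell gradients, where F8 to F10 held none of its counts. ZFP36L2, an adaptor that brings CCR4-NOT to AU-rich mRNA, went from 94.7 and 77 CPM in 8-cell pools to 17.1 and 10.9 CPM in morula pools, while its transcriptomes held 20.6, 28.9 and 21.9 CPM and then 36.9, 41.9 and 37.6 CPM (difference of the changes -3.32 ± 0.53, adjusted p = 0.00025).

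Salmon shares reads between similar transcripts, and a value that is not whole marks such sharing. For BTG4 42.2% of its values above 0 were not whole, against 17.2% over all genes. The other 9 genes lay between 0.9% for CNOT6 and 21.1% for CNOT2.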

How the data were processed

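Per the labels and the study's methods, the authors made Smart-seq2 libraries, ran Salmon against Ensembl's bovine annotation and deposited unnormalized expected counts per gene for 138 libraries. The labels name UMD3.1 as the build and the methods ARS-UCD1.2, so no coordinates are given, and strand handling is not given in the sources used here. The 10 genes, the pathway lists and the tests were chosen with earlier results of these data known.

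Counts were rounded and fitted in edgeR 4.0.16 (R 4.3.3, TMM, filterByExpr, quasi-likelihood test) over 12 polysome pools and 18 transcriptomes in 12 groups, with all groups sharing 1 estimate of the spread. Tests were two-sided, with Benjamini-Hochberg adjustment over 14612 genes per contrast and calls below 0.05. Trends used log2(CPM + 1), 16 libraries per stage, genes averaging at least 1 CPM and 100000 permutations, in Python 3.11.15. All 10 genes are named; of the other pathway genes, called ones with the largest changes, up to 3 per kind of contrast; and the 5 genes most like BTG4. The tests were tested on simulated data. No 2 replicate libraries were identical in 78 pairs. Limits for counts of 0 use 3 counts and cover counting error only. Alternatives covered test, scaling, filter, pooling, model, a replicate block and leaving out replicates.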

Additional observations from a re-analysis of the deposited data

Results flagged for a closer look

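For 3 genes the change between consecutive stages differed between polysomes and transcriptomes by a test of the difference itself. CNOT2 from GV to MII oocytes had a polysome change minus transcriptome change of -1.74 on the log2 scale (adjusted p = 0.019, edgeR). PAN3 from the 8-cell stage to the morula had a difference of 1.68 (adjusted p = 0.039). CNOT1 from morula to blastocyst had a difference of 1.59 (adjusted p = 0.03). None of the 3 was called without replicate C. In these transitions that fit called 494, 593 and 317 of all genes, where the main fit called 1556, 1821 and 1794. Without replicate B, the CNOT2 difference was -1.39 (adjusted p = 0.071) and the PAN3 difference 1.01 (adjusted p = 0.12). The PAN3 call was also lost without the filter (adjusted p = 0.053) and with the replicate block (adjusted p = 0.060). With F9 and F10 alone as polysomes, the CNOT2 difference was -1.70 (adjusted p = 0.56) and the CNOT1 difference 1.66 (adjusted p = 0.0504). The CNOT1 difference was 0.98 (adjusted p = 0.069) without replicate A. Without blastocyst transcriptome replicate A alone, an alternative added after seeing the data, it was 1.37 (adjusted p = 0.071).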

How the results depend on the processing

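The 84 calls on single genes were followed through all alternatives, and 35 of them kept direction and call in each. Among the counts of called genes, that of 20 in transcriptome transitions ranged from 6 to 29 when replicates were left out. The 11 calls in polysome transitions ranged from 6 to 27 without a replicate, and were 19 with DESeq2 and 2 with polysome pools alone. The 44 calls of polysomes against transcriptome ranged from 38 to 47 without a replicate, and were 34 with F9 and F10 as polysomes. The 3 differences of changes ranged from 0 to 13 without a replicate, and were 6 with DESeq2. The 6 trends were 2 without replicate A and 2 without replicate B, and both settings called 0 of all genes in blastocysts. They were 2 with edgeR on F8 to F10 against F3 to F5. With the replicate block in that comparison they were 2, of which 1, BTG4 in blastocysts, was among the 6. Leaving out replicate A or B left 1 pool per stage, which was assumed to vary like the other groups. Without replicate C fewer of all genes were called as well. From GV to MII that fit called 900 against 2724 in transcriptomes and 248 against 794 in polysomes. The fit of polysome pools alone called fewer of all genes than the main fit at every step. Its lost calls therefore do not single out a gene, and the adjusted p-values of polysome transitions may be too small.

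Without replicate A, 4 values that had not been called turned direction and were called. For CNOT6L in polysomes they ranged over left-out replicates from -1.14 (A) to 1.90 (B) in the 8-cell to morula step and from -2.62 (B) to 0.96 (A) in the next. For the difference of changes between morula and blastocyst they ranged from -1.17 (A) to 1.93 (B) for PAN2 and from -0.78 (B) to 1.78 (A) for CNOT6. The cause was not tested. Replicate letters showed no pairing by correlation of deviations from the group mean, though the study drew transcriptome pools from the batches used for gradients. Of 15 correlations in transcriptome transitions 1 was above 0.1. In polysome transitions 0 of 10 were, and between pools and transcriptomes 0 of 12. With 2 pools per stage the deviations of A and B mirror each other, so the 10 polysome values are pairs of equal values. With the replicate block the counts were 20, 10, 43 and 2 in the 4 kinds of contrast and 6 for trends. Over all genes, the trend in GV oocytes had 1931 rising and 2342 falling genes, and 2514 and 1685 without TMM factors.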
